A study of Arabidopsis thaliana with 6 samples.

Results

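Transcript levels of 55 genes for the synthesis, transport, perception, inactivation and early response of auxin were compared between wild-type and *ref4-3* plants. The genes were chosen by function and locus identifier from the 36796 genes of the count table: 28 Aux/IAA genes, 5 TIR1/AFB genes, 7 GH3 genes with *DAO1*, 4 YUC genes with *TAA1* and *TAR2*, and 8 PIN and AUX1/LAX genes. Whole rosette tissue of Col-0 plants was collected on day 21, before bolting and 6 h after lights on, with 3 libraries per genotype and the shoots of 5 plants pooled in each. The plants were grown on soil at 22°C with 16 h of light and 8 h of dark per day. Plants labelled wild type carry no stated mutation, and *ref4-3* plants carry a semidominant point mutation that changes 1 amino acid of MED5b, a subunit of the Mediator tail module. Both genotypes shared 3 days of cold at 4°C in the dark as seeds and light of 150 µE, and the labels name no other treatment. Because the mutation is a point mutation, the *MED5b* transcript does not check the labels. It had 17.9 to 26.5 CPM (counts per 1000000 of the TMM-adjusted library size) in wild-type and 16.6 to 18.7 CPM in *ref4-3* libraries (log2 fold change -0.31, SE 0.16, adjusted p = 0.202, edgeR).

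Auxin (indole-3-acetic acid, IAA) is made in plants mainly in a short pathway in which TAA1 and its relatives convert tryptophan to indole-3-pyruvate and YUC enzymes convert that to IAA. AUX1/LAX carriers bring IAA into cells and PIN carriers export it. Inside the nucleus, IAA joins a TIR1/AFB F-box protein to an Aux/IAA repressor, which is then degraded, and the auxin response factors (ARFs) that the repressor held are released. Many Aux/IAA and GH3 genes are themselves induced by auxin within minutes to hours, and GH3 enzymes link IAA to amino acids, so that both families act as feedback on the signal.

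Of the 55 genes, 53 had enough counts to be tested, and 18 of them were lower and 2 were higher in *ref4-3* plants at an adjusted p-value under 0.05 (edgeR's quasi-likelihood test, two-sided, Benjamini-Hochberg adjustment over all 23050 tested genes). Lower genes thus made up 18 of 53 members, beside 11.9% of all tested genes, and higher genes 2 of 53, beside 8.52% of all tested genes. In either direction, 37.7% of the tested members and 20.4% of all tested genes passed. With a fold change above 2 also required, 12 members were lower and 1 was higher, beside 5.24% and 4.48% of all tested genes and 9.72% in either direction. The median log2 fold change was -0.30 over the 53 members and 0.01 over all tested genes. For 25 members, each *ref4-3* library had a lower level than each wild-type library, beside 22.7% of all tested genes, and for 7 a higher one, beside 22.5% (45.2% in either direction). The share of calls depends on the level of a gene. Among all tested genes with a mean of 10 CPM or more, 16.2% were lower and 7.73% higher, and 14 of the 30 members at that level were lower and 1 higher. From 1 to 10 CPM the shares were 10.2% and 10.3%, with 4 of 17 members lower and none higher. Under 1 CPM they were 0.801% and 8.23%, with none of 6 members lower and 1 higher. A weak gene can pass the filter on counts through the genotype in which it is high, as *GH3.4*, this 1 higher gene, did through *ref4-3*.

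**Figure D1:**
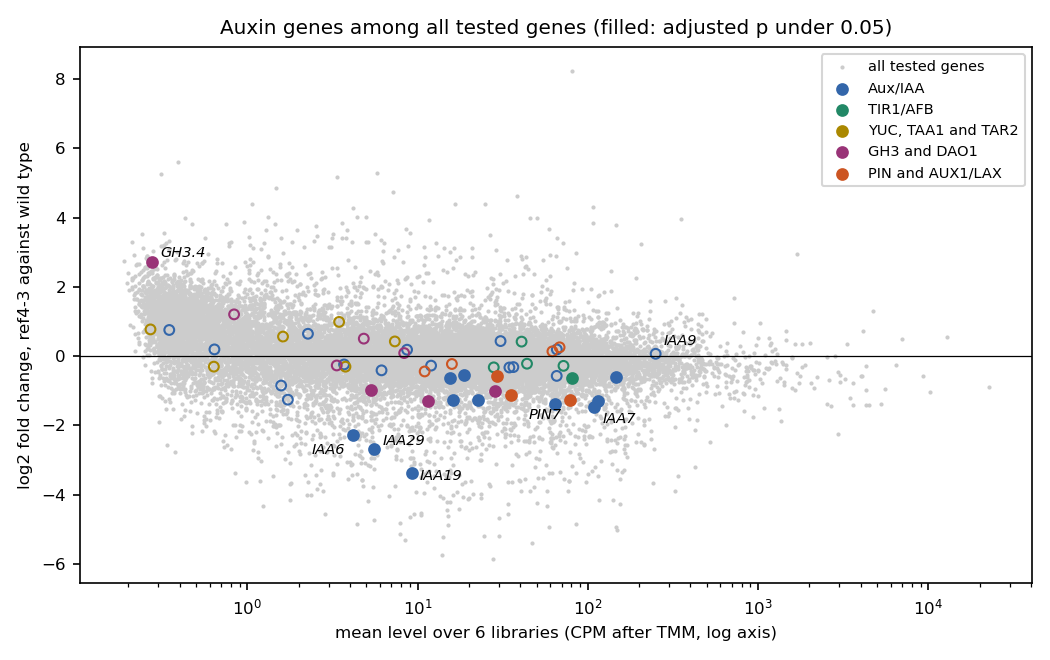
Log2 fold change of *ref4-3* against wild type (vertical axis) by mean level over 6 libraries in CPM after TMM (horizontal log axis), for all 23050 tested genes in grey and the tested auxin genes in the colour of their function group, filled where the adjusted p-value was under 0.05. Most filled points lie below 0 at levels above 1 CPM, with the weakly expressed *GH3.4* above 0.

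Library totals were 26060005 to 32879414 counts, so that 3 counts, taken as the smallest detectable signal, stood for 0.0912 to 0.115 CPM, which covers counting error only. Wild-type replicate 2 had counts on 27913 genes and the other 5 libraries on 32015 to 34884. All 6 libraries had high levels of the rosette leaf markers *RBCS1A*, *LHCB1.3*, *CA1*, *PSBO1* and *GAPB* (25400 to 33000 CPM summed in *ref4-3* and 45500 to 49200 CPM in wild-type libraries). Only *LHCB1.3*, the most abundant of them, was called (log2 fold change -0.90, adjusted p = 0.0157, edgeR). *RBCS1A*, *GAPB*, *PSBO1* and *CA1* had log2 fold changes of -0.58, -0.35, -0.29 and 0.02 and were not called. The root markers *COBL9*, *EXPA7*, *PHT1;4* and *CASP1* summed to 1.49 to 2.32 CPM in wild-type and 1.85 to 3.44 CPM in *ref4-3* libraries. The 6 floral markers summed to 11.6 to 16.0 CPM in wild-type and 6.89 to 11 CPM in *ref4-3* libraries. For the 4 shoot meristem markers, the sums were 21.3 to 29.6 and 18.2 to 20.2 CPM. *SEP3* (log2 fold change -1.36, adjusted p = 0.0282) and *STM* (-0.59, 0.0363) were lower and *LFY* (0.92, 0.0467) higher (edgeR). The other floral and meristem markers were not called. In whole rosettes, fewer cells of a type and less transcript per cell cannot be told apart. A list of 7 genes that touch or wounding induces within minutes held *TCH2*, *TCH3*, *TCH4*, *WRKY40*, *ZAT12*, *JAZ1* and *ORA47*. They summed to 713 to 3360 CPM in wild-type and 461 to 609 CPM in *ref4-3* libraries. Of the 7, 5 were lower in *ref4-3* plants, beside 11.9% of all tested genes (edgeR). All 7 were highest in wild-type replicate 2 among the wild-type libraries. Of the 18 lower auxin genes, 7 had their highest and 3 their lowest wild-type level in that library, and without it 17 of the 20 auxin calls remained. The part of these rapid genes in the auxin results was not tested.

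**Figure D2:**
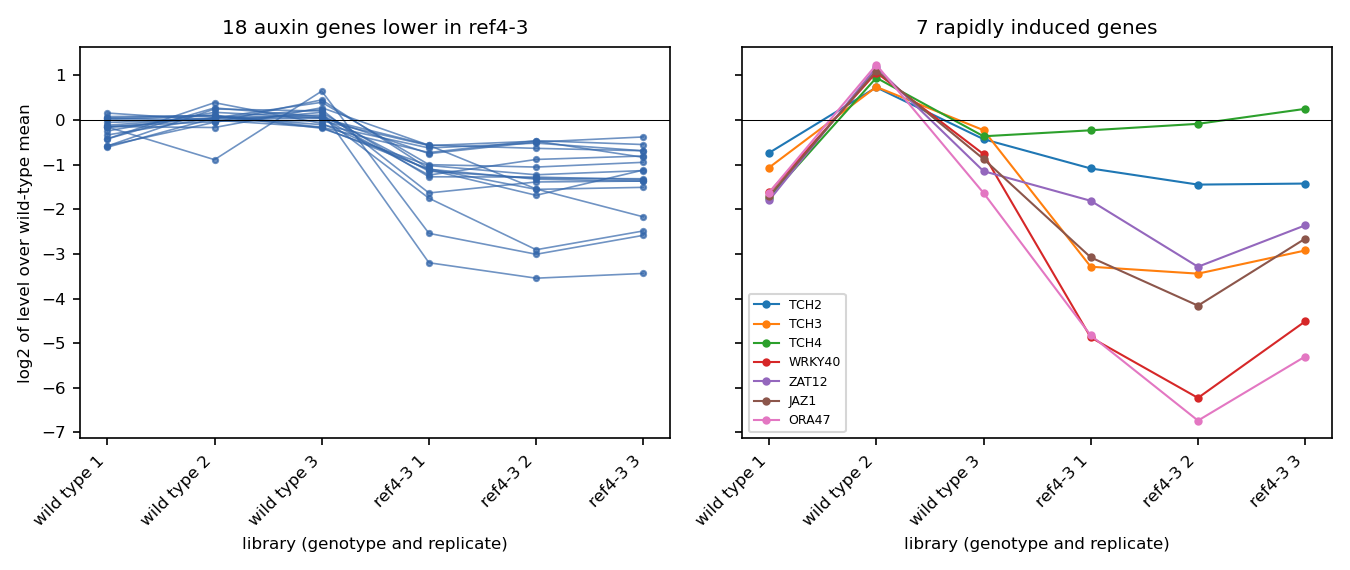
Log2 of the level in each library over the wild-type mean (vertical axis, CPM after TMM) for the 18 auxin genes lower in *ref4-3* plants (left) and the 7 rapidly induced genes (right), with 1 line per gene and the 6 libraries on the horizontal axis. The rapidly induced genes peak in wild-type replicate 2 within wild type, as do 7 of the 18 auxin genes, all of which are lower in the 3 *ref4-3* libraries.

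The Aux/IAA repressor genes, the largest function group, held 11 of the 20 calls. The share called was 42.3% of the tested Aux/IAA genes and 50% of the GH3 and *DAO1* genes. It was 37.7% of all tested members and 20.4% of all tested genes. Of 26 Aux/IAA genes tested, 11 were lower and none was higher in *ref4-3* plants, and 8 of the 11 fell by more than 2-fold (edgeR). At an unadjusted p under 0.05, 14 were lower and 1 higher, but no share of all tested genes was computed at that threshold. EdgeR's exact test and DESeq2, which called 26.5% and 26.8% of all tested genes, each gave 0 higher Aux/IAA genes. Scaling by library totals without TMM called 1 higher, *IAA18*. Their median log2 fold change was -0.55, and 19 of 26 had a value below 0. Summed over the 28 genes, Aux/IAA transcripts amounted to 1109, 1224 and 1418 CPM in the wild-type libraries and 852, 863 and 817 CPM in the *ref4-3* libraries. The sums, taken after TMM, did not overlap between genotypes, and the 4 most abundant genes of each library held 56.3% to 62.1% of them.

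**Figure D3:**
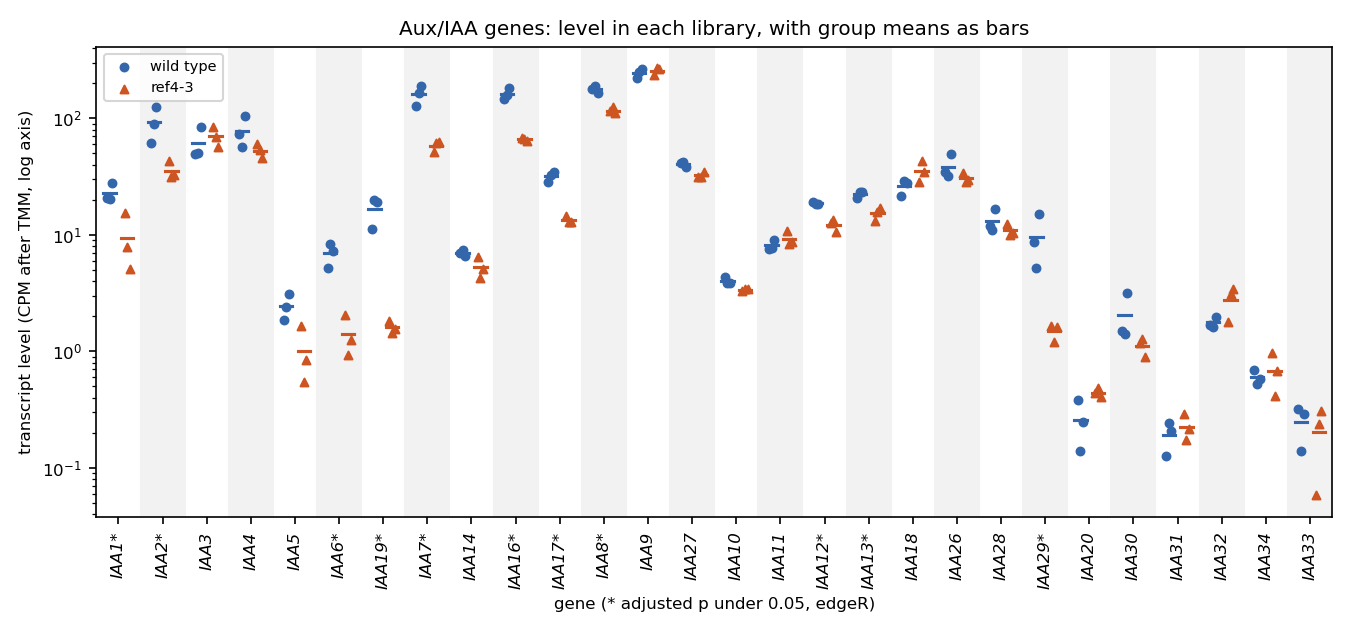
Transcript level of the 28 Aux/IAA genes in each library (vertical log axis, CPM after TMM; circles wild type, triangles *ref4-3*, bars group means of 3 libraries), with related genes side by side and a star on genes with an adjusted p-value under 0.05. The largest gaps between genotypes are those of *IAA19*, *IAA29* and *IAA6*, and *IAA9*, the most abundant gene, has overlapping groups.

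*IAA5*, *IAA6* and *IAA19* code for closely related repressors, of which IAA19 is best known from hypocotyl growth and tropic bending. *IAA19* (*AT3G15540*, chr3:5264001-5265695 of TAIR10.1, plus strand, 3 exons) had 11.2, 19.9 and 19.3 CPM in wild-type and 1.83, 1.44 and 1.55 CPM in *ref4-3* libraries. Every *ref4-3* library was far below the lowest wild-type library, and the 3 *ref4-3* values lay close together. The means were 16.8 ± 4.86 and 1.61 ± 0.201 CPM (SD, n = 3), a 10.4-fold lower level in *ref4-3* plants (log2 fold change -3.38, SE 0.26, adjusted p = 8.83e-04, edgeR), the largest decrease among the 53 tested members. *IAA6* (*AT1G52830*, chr1:19672476-19673652, minus strand, 3 exons) had 5.17, 8.37 and 7.30 CPM in wild-type and 2.06, 0.926 and 1.24 CPM in *ref4-3* libraries. It was 4.89-fold lower (log2 fold change -2.29, SE 0.33, adjusted p = 0.00641, edgeR), without overlap. *IAA5*, the least abundant of the 3, had 1.87, 2.40 and 3.09 CPM in wild-type and 1.66, 0.549 and 0.835 CPM in *ref4-3* libraries. Its groups did not overlap, but it did not pass the test (log2 fold change -1.26, SE 0.42, adjusted p = 0.0686, edgeR). The adjusted p was 0.024 with edgeR's exact test and 0.0237 with DESeq2, which both called more of the whole table.

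The stretches upstream of *IAA19* and *IAA6* are shown because these sister genes fell together. Capitals mark matches to TGTCTC or TGTCGG, motifs that ARF proteins bind, searched on both strands. The second motif, read on the other strand, contains the core of the dehydration-responsive element, which other factors bind. Each sequence is the 250 bases before the annotated gene start, 5′ to 3′ on the gene's strand, from RefSeq's TAIR10.1.
*IAA19*, chr3:5263751-5264000, plus strand: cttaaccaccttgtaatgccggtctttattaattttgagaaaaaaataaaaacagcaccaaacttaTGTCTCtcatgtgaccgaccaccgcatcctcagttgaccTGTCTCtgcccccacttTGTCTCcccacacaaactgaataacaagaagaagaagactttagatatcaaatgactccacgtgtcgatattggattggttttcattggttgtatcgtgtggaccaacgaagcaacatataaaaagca
*IAA6*, chr1:19673653-19673902, minus strand: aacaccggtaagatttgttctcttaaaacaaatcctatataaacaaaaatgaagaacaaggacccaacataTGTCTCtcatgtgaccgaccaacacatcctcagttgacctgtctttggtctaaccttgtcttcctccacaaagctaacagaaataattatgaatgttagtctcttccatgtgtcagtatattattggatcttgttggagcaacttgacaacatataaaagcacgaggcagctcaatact
The *IAA19* window holds 3 matches to TGTCTC and the *IAA6* window 1. Their longest shared run, 23 bases, spans the match farthest from the gene in *IAA19* and the match in *IAA6*, starts at positions -186 and -181 relative to the gene start, and is found in 2 of 27443 windows of protein-coding genes, those of *IAA6* and *IAA19*.
Shared run: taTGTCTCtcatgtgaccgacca
It was the longest run shared by any of the 1485 pairs of members.

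*IAA29* (*AT4G32280*, chr4:15583332-15584903, plus strand, 3 exons), a divergent family member that shade induces, had 8.66, 5.21 and 15.1 CPM in wild-type and 1.66, 1.20 and 1.61 CPM in *ref4-3* libraries. Wild-type values differed widely among themselves, but the lowest of them was above all *ref4-3* values, and the gene was 6.44-fold lower (log2 fold change -2.69, SE 0.39, adjusted p = 0.00689, edgeR). Its 250-base window, unlike those of *IAA19* and *IAA6*, has no match to either motif.

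*IAA7*, *IAA14*, *IAA16* and *IAA17* form a related group, in which gain-of-function mutations that stabilize the protein gave the classical auxin-resistant mutants *axr2*, *slr* and *axr3*. *IAA7* (*AXR2*, *AT3G23050*) had 127, 166 and 188 CPM in wild-type and 51.6, 61.2 and 62.1 CPM in *ref4-3* libraries, a 2.75-fold lower level (log2 fold change -1.46, SE 0.17, adjusted p = 0.00395, edgeR). *IAA16* (*AT3G04730*) had 147, 158 and 183 CPM in wild-type and 67.3, 67.0 and 64.4 CPM in *ref4-3* libraries and was 2.46-fold lower (log2 fold change -1.30, SE 0.13, adjusted p = 0.00195, edgeR). *IAA17* (*AXR3*, *AT1G04250*) had 28.4, 32.9 and 34.4 CPM in wild-type and 14.4, 12.9 and 12.8 CPM in *ref4-3* libraries and was 2.38-fold lower (log2 fold change -1.25, SE 0.12, adjusted p = 0.00206, edgeR). For these 3 genes, the spread within *ref4-3* was small beside the gap between genotypes, and no library crossed it. *IAA14* (*SLR*) had 7.01, 7.40 and 6.60 CPM in wild-type and 6.48, 4.25 and 5.07 CPM in *ref4-3* libraries and did not pass the test (log2 fold change -0.41, SE 0.19, adjusted p = 0.149, edgeR), although its groups did not overlap.

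Among *IAA1* to *IAA4*, a group rapidly induced by auxin in seedlings, 2 passed the test. *IAA2* (*AT3G23030*) had 61.8, 89 and 126 CPM in wild-type and 43.2, 31.4 and 32.4 CPM in *ref4-3* libraries and was 2.59-fold lower (log2 fold change -1.37, SE 0.26, adjusted p = 0.0149, edgeR). *IAA1* (*AXR5*, *AT4G14560*) had 20.6, 20.3 and 27.6 CPM in wild-type and 15.4, 7.82 and 5.07 CPM in *ref4-3* libraries. The *ref4-3* libraries differed widely among themselves but stayed below wild type, with a 2.42-fold lower level (log2 fold change -1.27, SE 0.37, adjusted p = 0.0491, edgeR). *IAA3* (*SHY2*) had overlapping groups, 49.7, 50.7 and 83.6 CPM in wild-type and 84.7, 69.4 and 56.4 CPM in *ref4-3* libraries (log2 fold change 0.19, SE 0.24, adjusted p = 0.572, edgeR). *IAA4* overlapped as well (log2 fold change -0.57, SE 0.23, adjusted p = 0.109, edgeR).

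Genes of these groups are paired head to head in the genome: *IAA3* with *IAA17*, *IAA2* with *IAA7* and *IAA14* with *IAA1*, each pair transcribed away from each other with 6388, 12510 and 10732 bases between the gene starts and no other protein-coding gene in between. Only *IAA2* and *IAA7* were both called. The count ratio of *IAA17* to its neighbour *IAA3*, which no scaling between libraries can change, was 0.571, 0.650 and 0.411 in wild-type and 0.171, 0.186 and 0.227 in *ref4-3* libraries. This ratio was chosen after its values were seen and was not tested.

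*IAA8*, *IAA9* and *IAA27* code for a related group of broadly expressed repressors, and *IAA9* is known for its part in leaf shape in tomato. Per kilobase of annotated exon, *IAA9* was the most abundant member in wild type, at 104 to 123 CPM per kb. *IAA8*, *IAA7* and *IAA16* followed with means of 86.4, 84.0 and 80.3 CPM per kb, whose libraries overlapped each other and lay below those of *IAA9*. *IAA9* (*AT5G65670*, chr5:26253408-26256544) had 222, 247 and 263 CPM in wild-type and 236, 268 and 263 CPM in *ref4-3* libraries. The groups overlapped almost fully (log2 fold change 0.07, SE 0.13, adjusted p = 0.707, edgeR). *IAA8* (*AT2G22670*) had 179, 189 and 165 CPM in wild-type and 115, 124 and 110.0 CPM in *ref4-3* libraries and was 1.53-fold lower (log2 fold change -0.61, SE 0.12, adjusted p = 0.0155, edgeR). The count ratio of *IAA8* to *IAA9* was 0.808, 0.767 and 0.628 in wild-type and 0.489, 0.463 and 0.417 in *ref4-3* libraries, also chosen after the values were seen and not tested. *IAA27* was not called (log2 fold change -0.32, SE 0.10, adjusted p = 0.0692, edgeR), although its groups did not overlap.

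*IAA10* to *IAA13* include *BODENLOS* (*IAA12*), the repressor of ARF5 in embryo patterning. *IAA12* (*AT1G04550*) had 19.3, 18.5 and 18.5 CPM in wild-type and 12.6, 13.5 and 10.5 CPM in *ref4-3* libraries and was 1.54-fold lower (log2 fold change -0.62, SE 0.13, adjusted p = 0.0198, edgeR). Its close relative *IAA13* (*AT2G33310*) had 20.5, 23.1 and 23.2 CPM in wild-type and 13.2, 15.8 and 17.1 CPM in *ref4-3* libraries and was 1.45-fold lower (log2 fold change -0.53, SE 0.14, adjusted p = 0.0334, edgeR). Neither gene had overlapping groups, and for *IAA12* the gap between genotypes was larger than the spread within either. *IAA10* and *IAA11* had log2 fold changes of -0.24 and 0.19 and did not pass. Antisense neighbours span 38.4% of *IAA13* and 35.6% of *IAA10*, and since the strand setting of the counting is not given in the sources used here, their counts may hold reads of the other gene. The same holds for *IAA3* (41.5%).

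None of *IAA18*, *IAA26* and *IAA28* passed, with log2 fold changes of 0.44, -0.33 and -0.27. *IAA20*, *IAA30* to *IAA32*, *IAA33* and *IAA34*, atypical proteins known to lack all or part of the degron that binds TIR1, were the weakly expressed end of the family: 0.215 to 2.04 CPM per kb in wild type. *IAA31* had at most 10 counts in any library, and so had *IAA33*, and they failed the filter. The 4 atypical genes that were tested had log2 fold changes of -0.85 (*IAA30*) to 0.76 (*IAA20*), none called (edgeR). The wild-type counts of *IAA20* alone would not have passed the filter. *IAA32* shares 100% identity over 50.8% of its transcript with *AT2G01210* on the opposite strand, and its counts are uncertain. *AT1G15060* overlaps 11% of *IAA34* on the same strand. *IAA20* and *IAA30* also share a run of 18 bases around a match to TGTCTC, starting at positions -70 and -57 relative to the gene start and found in 2 of 27443 windows.
Shared run: cTGTCTCatcattccacc

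Of the 11 Aux/IAA calls, those of *IAA6*, *IAA7*, *IAA16*, *IAA17*, *IAA19* and *IAA29* held with any 1 of the 6 libraries left out. Without *ref4-3* replicate 3, the adjusted p-value was 0.0720 for *IAA2*, 0.0805 for *IAA8*, 0.0813 for *IAA12*, 0.118 for *IAA1* and 0.0749 for *IAA13* (edgeR), and without *ref4-3* replicate 2 it was 0.0565 for *IAA2*. *IAA1* and *IAA13* kept their calls in 1 of 6 fits: *IAA1* lost it also without wild-type replicates 1, 2 and 3 (0.0633, 0.0708 and 0.105) and *ref4-3* replicate 2 (0.138), and *IAA13* without wild-type replicates 2 and 3 (0.0662 and 0.0535) and *ref4-3* replicates 1 and 2 (0.0852 and 0.0940). The call of *IAA1* also ended with the replicate number as a block (0.0659), with RLE in place of TMM (0.0505) and with at least 10 counts in every library (0.0580), and that filter ended the call of *IAA13* (0.0506, edgeR). Scaling by library totals ended the calls of *IAA1*, *IAA8*, *IAA12* and *IAA13* (0.0576, 0.0675, 0.0909 and 0.179). Leaving out *ref4-3* replicate 3 lowers the calls of the whole table from 20.4% to 4.09%.

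Of the 5 TIR1/AFB receptor genes, *AFB5* alone passed the test. This is 20%, near the 20.4% of all tested genes. *AFB5* (*AT5G49980*), which also perceives picolinate herbicides and was the most abundant receptor transcript per kilobase in wild type, at 37.2 to 39.7 CPM per kb, had 93.9, 99 and 100 CPM in wild-type and 66.1, 62.8 and 60.5 CPM in *ref4-3* libraries. Its groups were narrow and well apart, with a 1.55-fold lower level (log2 fold change -0.63, SE 0.11, adjusted p = 0.0102, edgeR). The call was lost without *ref4-3* replicate 3 (adjusted p = 0.0623). *TIR1*, *AFB1* and *AFB2* had log2 fold changes of -0.28, -0.32 and -0.22 and *AFB3* of 0.42, with overlapping groups (adjusted p = 0.156 to 0.34, edgeR). Without wild-type replicate 1, 2 of the 5 genes were called, and *AFB3* was the 1 called higher. Antisense noncoding RNA genes span 25.1% of *AFB3* and 16.8% of *AFB1*, and the counts of both may hold reads of the other gene. *AFB4*, the close relative of *AFB5* outside the 55 genes and named here after its value was seen, was lower as well (log2 fold change -0.65, SE 0.13, adjusted p = 0.0171, edgeR; not called without *ref4-3* replicates 1, 2 and 3, up to 0.0673).

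A microRNA, miR393, is known to cut the transcripts of *TIR1*, *AFB2* and *AFB3*, and its best match in each receptor transcript is shown to describe how the family differs in sequence. The mature miR393a-5p of RefSeq's TAIR10.1 (chr2:16652111-16652132, plus strand) is given 5′ to 3′ with bases 2 to 8 in capitals, and each stretch below it is the best ungapped match to its reverse complement in the longest transcript, 5′ to 3′, with matching bases in capitals.
miR393a-5p: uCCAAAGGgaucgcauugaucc
*TIR1*: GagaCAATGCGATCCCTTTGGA
*AFB2*: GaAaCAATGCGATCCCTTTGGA
*AFB3*: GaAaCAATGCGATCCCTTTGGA
*AFB1*: GagaCcATGCGATCCCTTTGGA
*AFB4*: GGtTCAAaGaGcTtaCTTTGGt
*AFB5*: GGATCtcTtgttTCCCTgaGGA
Of 22 bases, 19 matched in *TIR1*, 20 in *AFB2* and *AFB3*, 18 in *AFB1*, 15 in *AFB4* and 14 in *AFB5*. The largest number of mismatches in *TIR1*, *AFB2* and *AFB3*, 3, was taken as a limit, so that these genes meet it by construction. Among the longest transcripts of 27444 protein-coding genes, only these 3 had a stretch within it. *AFB1*, with 4 mismatches, was not called, and neither were *TIR1*, *AFB2* and *AFB3*. A match is a description of the sequence, miR393 itself was not measured, and its part in the levels was not tested.

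**Figure D4:**
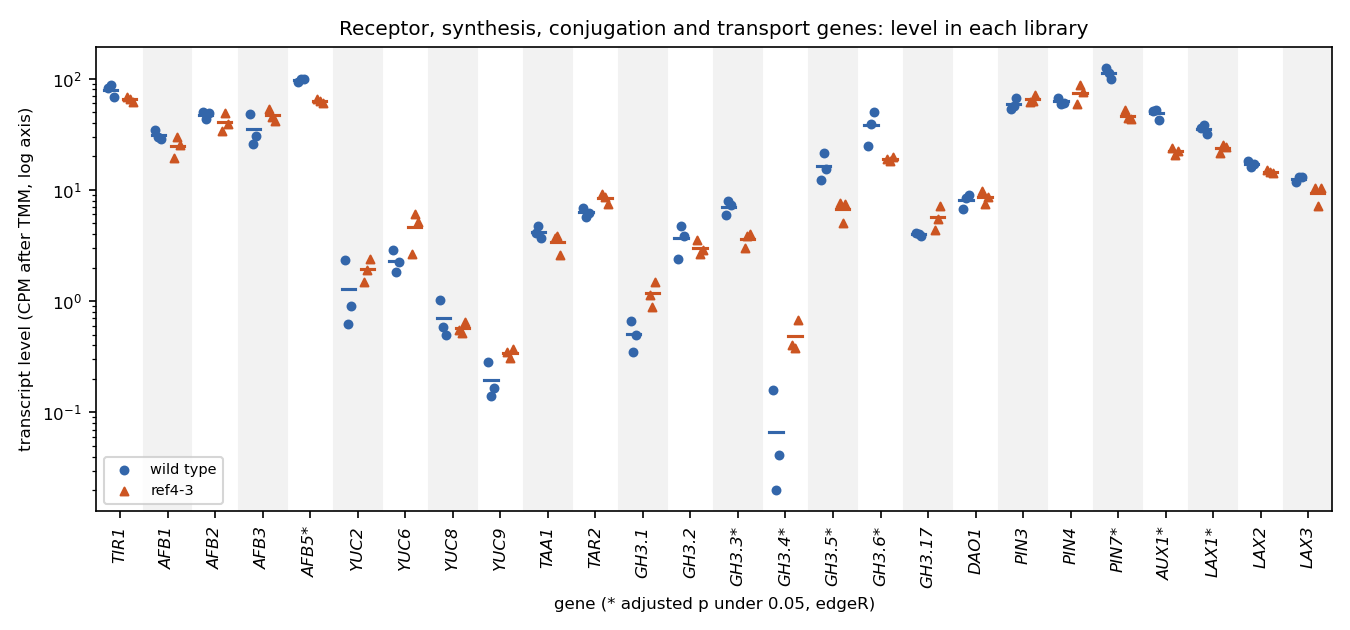
Transcript level of the receptor, synthesis, conjugation and transport genes in each library (vertical log axis, CPM after TMM; circles wild type, triangles *ref4-3*, bars group means), with a star on genes with an adjusted p-value under 0.05. The wild-type library of *GH3.4* with 0 counts is drawn at the bottom of the axis, and *PIN7*, *AUX1*, *AFB5* and *LAX1* have tight, separated groups.

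None of the 6 IAA synthesis genes among the members passed the test. *YUC4*, a synthesis gene outside the member list, was called higher (log2 fold change 1.59, adjusted p = 0.0314, edgeR) and is described below. Its wild-type counts alone would not have passed the filter on counts, which it met with its *ref4-3* libraries, where it is high. Of *YUC2*, *YUC6*, *YUC8*, *YUC9*, *TAA1* and *TAR2*, all 6 were tested and 0 were called, beside 20.4% of all tested genes (edgeR). At an unadjusted p under 0.05, 2 were higher, *YUC6* and *TAR2*, but no share of all tested genes was computed at that threshold. EdgeR's exact test and DESeq2, which called 26.5% and 26.8% of all tested genes, each called 1, *YUC6*. *TAR2*, a TAA1 relative, and *TAA1* had the highest mean levels per kilobase in wild type of these genes (2.71 and 2.69 CPM per kb), with overlapping libraries and the reverse order in wild-type replicate 2. *TAR2* had 6.92, 5.70 and 6.19 CPM in wild-type and 9.24, 8.54 and 7.49 CPM in *ref4-3* libraries. All *ref4-3* libraries were above wild type by a small margin (log2 fold change 0.43, SE 0.15, adjusted p = 0.0856, edgeR). *YUC6* had 2.89, 1.81 and 2.23 CPM in wild-type and 2.64, 6.00 and 5.17 CPM in *ref4-3* libraries. The groups overlapped through *ref4-3* replicate 1 (log2 fold change 0.99, SE 0.34, adjusted p = 0.0730, edgeR), and without that library 1 gene of the group was called. *TAA1* had a log2 fold change of -0.30 (SE 0.21) and *YUC8* of -0.30 (SE 0.38). *YUC9* stayed under 0.4 CPM in every library, with a log2 fold change of 0.77 (SE 0.46), and passed the filter only through its *ref4-3* libraries.

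Among the genes that inactivate IAA, 3 of the GH3 conjugating enzymes were lower and 1 was higher, of 8 genes tested with *DAO1*. Of all tested genes, 11.9% were lower and 8.52% higher. *GH3.6* (*DFL1*, *AT5G54510*), the most abundant per kilobase in wild type at 10.7 to 21.6 CPM per kb, had 24.9, 39.2 and 50 CPM in wild-type and 19, 18.3 and 19.7 CPM in *ref4-3* libraries. The wild-type libraries varied 2-fold, whereas the *ref4-3* libraries were nearly equal and lower (log2 fold change -1, SE 0.23, adjusted p = 0.0259, edgeR). *GH3.5* (*AT4G27260*), whose enzyme is known to act on IAA and on salicylic acid, had 12.2, 21.4 and 15.5 CPM in wild-type and 7.55, 5.08 and 7.52 CPM in *ref4-3* libraries and was 2.43-fold lower (log2 fold change -1.28, SE 0.25, adjusted p = 0.0152, edgeR). *GH3.3* (*AT2G23170*), a gene widely used as an auxin response marker, had 5.93, 7.92 and 7.26 CPM in wild-type and 2.99, 3.81 and 4.02 CPM in *ref4-3* libraries and was 1.95-fold lower (log2 fold change -0.96, SE 0.19, adjusted p = 0.0159, edgeR). In all 3 genes, each wild-type library was above each *ref4-3* library.

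*GH3.4* (*AT1G59500*) had 5, 0 and 1 counts in wild-type and 14, 11 and 22 counts in *ref4-3* libraries, or 0.0666 ± 0.0823 and 0.488 ± 0.167 CPM (SD, n = 3). The wild-type libraries were at or near the smallest detectable level, so the fitted log2 fold change of 2.73 (SE 0.78, adjusted p = 0.0466, edgeR) rests on few counts. The gene passed the filter on counts only through its *ref4-3* libraries, the group in which it is high. Leaving out any library but wild-type replicate 1 ended its call (adjusted p = 0.0628 to 0.164), and it was not called with the replicate number as a block (adjusted p = 0.0909). *GH3.1*, also weakly expressed, had 0.666, 0.347 and 0.495 CPM in wild-type and 1.13, 0.892 and 1.48 CPM in *ref4-3* libraries. It did not pass the test (log2 fold change 1.21, SE 0.37, adjusted p = 0.0545, edgeR). The adjusted p was 0.0162 with edgeR's exact test and 0.0306 with DESeq2, which called 26.5% and 26.8% of all tested genes. The wild-type counts of *GH3.1* alone would not have passed the filter. Tested genes under 1 CPM had a median log2 fold change of 0.88 over the whole table, and the *ref4-3* libraries had counts on 34087 to 34884 genes against 27913 to 33228 in wild type. The part of this shift in *GH3.4* and *GH3.1* was not tested. *GH3.2*, *GH3.17* and *DAO1*, the dioxygenase that oxidizes IAA, had log2 fold changes of -0.27, 0.51 and 0.09 and were not called.

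Without *ref4-3* replicate 3, none of the 4 calls in this group held (adjusted p = 0.0919 for *GH3.6*, 0.0592 for *GH3.5* and 0.0566 for *GH3.3*, edgeR), nor without *ref4-3* replicate 2 (0.0851, 0.0507 and 0.05). Without *ref4-3* replicate 1, that of *GH3.6* was lost as well (0.0676). The log2 fold changes of the 3 lower genes stayed between -1.48 and -0.79 in these fits.

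Of the 8 carrier genes, 3 were lower, beside 11.9% of all tested genes. *PIN7* (*AT1G23080*, chr1:8180189-8183650, minus strand), an efflux carrier gene and the most abundant carrier transcript per kilobase in wild type, at 30.1 to 37.8 CPM per kb, had 124, 111 and 99.2 CPM in wild-type and 51.8, 44.4 and 43.0 CPM in *ref4-3* libraries. The lowest wild-type library was well above the highest *ref4-3* library, and the level was 2.40-fold lower (log2 fold change -1.26, SE 0.14, adjusted p = 0.00294, edgeR). *PIN3* and *PIN4*, close relatives of *PIN7*, differed by 0.14 (SE 0.13, adjusted p = 0.447, edgeR) and 0.26 on the log2 scale (SE 0.16, adjusted p = 0.267, edgeR), and their groups overlapped. Within libraries, the count ratio of *PIN7* to *PIN3* was 2.32, 1.96 and 1.48 in wild-type and 0.846, 0.705 and 0.610 in *ref4-3* plants. *PIN7* counts thus exceeded *PIN3* counts in every wild-type library and in no *ref4-3* library, a comparison chosen after its values were seen and not tested.

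Among the influx carriers, *AUX1* (*AT2G38120*, chr2:15972876-15977180, plus strand) had 51.1, 51.8 and 42.6 CPM in wild-type and 23.9, 20.7 and 22.1 CPM in *ref4-3* libraries and was 2.18-fold lower (log2 fold change -1.13, SE 0.12, adjusted p = 0.00311, edgeR). *LAX1* (*AT5G01240*) had 36.2, 37.9 and 31.4 CPM in wild-type and 21.2, 25.5 and 24.0 CPM in *ref4-3* libraries and was 1.49-fold lower (log2 fold change -0.58, SE 0.13, adjusted p = 0.0209, edgeR). Both were separated between genotypes. *LAX2* and *LAX3* had log2 fold changes of -0.23 and -0.44, not called, although their groups did not overlap. The calls of *PIN7* and *AUX1* held in all 6 fits that left out a library, and that of *LAX1* was lost without *ref4-3* replicates 1, 2 and 3 (adjusted p = 0.0594, 0.0531 and 0.0831). Scaling by library totals also ended the call of *LAX1* (0.111, edgeR). After TMM, the summed level of the 8 carrier genes was 342 to 372 CPM in wild-type and 262 to 278 CPM in *ref4-3* libraries. The gap depends in part on the TMM factors, which were 0.875 to 0.961 in wild-type and 1.05 to 1.12 in *ref4-3* libraries. Sums without them were not compared.

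**Figure D5:**
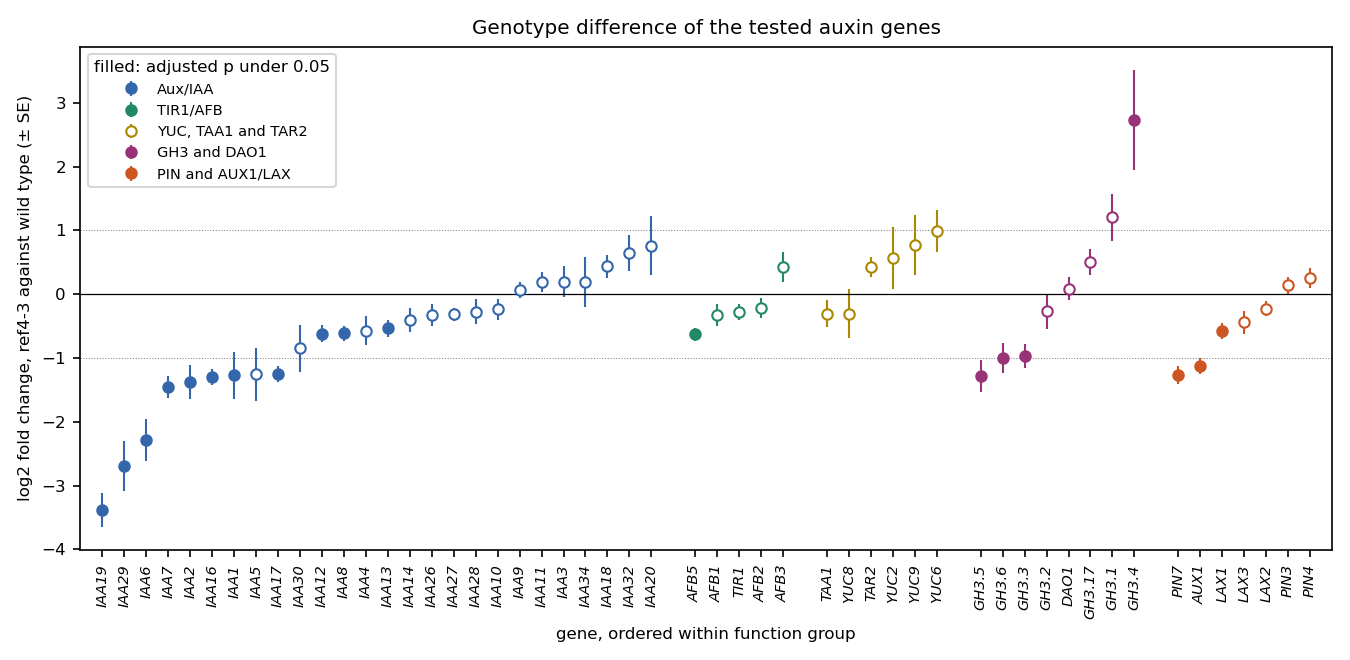
Log2 fold change of *ref4-3* against wild type with its SE (vertical axis) for the tested auxin genes, ordered within their function groups on the horizontal axis, filled where the adjusted p-value was under 0.05 (edgeR), with dotted lines at a 2-fold change. Filled points run from *IAA19* at -3.38 to *GH3.4* at 2.73, and the synthesis genes have open points only.

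TGTCTC or TGTCGG lay within 250 bases before the gene start of 19 of the 55 members (34.5%) and of 14.7% of the 27443 windows of protein-coding genes. TGTCTC alone was found in 25.5% of the members' windows and 10.9% of all windows, and TGTCGG in 12.7% and 4.16%. Among the 18 lower members, 10 had a match (*IAA1*, *IAA6*, *IAA8*, *IAA12*, *IAA13*, *IAA16*, *IAA19*, *AFB5*, *GH3.3* and *GH3.5*), among the 33 that did not pass, 9 had one, and among the 2 higher, none. These are 55.6% of the lower members and 27.3% of those that did not pass. Within 1000 bases, the shares were 72.2% and 60.6%, with 63.6% of all members and 48.3% of all windows. The function groups differ in their shares, and the lower members and those that did not pass hold them in unlike numbers. Within 250 bases, 46.4% of the Aux/IAA genes had a match, with 63.6% of the lower ones and 40% of those that did not pass. For GH3 and *DAO1* genes these were 2 of 3 and 1 of 4, for receptors 1 of 1 and 0 of 4. Among carriers they were 0 of 3 and 1 of 4. No test was made of any of these shares. The windows of *GH3.3* and *GH3.5*, the lower conjugase genes with a match, are shown with it in capitals.
*GH3.3*, chr2:9866563-9866812, minus strand: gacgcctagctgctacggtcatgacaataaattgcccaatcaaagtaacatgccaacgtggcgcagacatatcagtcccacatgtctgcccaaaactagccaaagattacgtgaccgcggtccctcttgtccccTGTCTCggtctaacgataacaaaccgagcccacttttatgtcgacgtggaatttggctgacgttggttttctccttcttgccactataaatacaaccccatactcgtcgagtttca
*GH3.5*, chr4:13653329-13653578, plus strand: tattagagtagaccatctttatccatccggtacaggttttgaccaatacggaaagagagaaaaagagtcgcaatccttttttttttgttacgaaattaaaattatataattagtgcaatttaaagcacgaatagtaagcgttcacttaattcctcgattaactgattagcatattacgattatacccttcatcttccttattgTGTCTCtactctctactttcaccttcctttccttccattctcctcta
The last base of the match lies at position -111 relative to the gene start in *GH3.3* and at -42 in *GH3.5*.

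Of 64 other genes of the auxin pathway, 54 were tested, 11 were lower and 2 were higher (24.1%, beside 20.4% of all tested genes, edgeR), with a median log2 fold change of -0.17. Among 16 tested ARF genes, which code for the transcription factors that Aux/IAA proteins repress, 3 were lower and 0 higher. This is 18.8% called, near the 20.4% of all tested genes. At an unadjusted p under 0.05, 1 was higher, but no share of all tested genes was computed at that threshold. The lower ones were *ARF11* from 14.3 ± 2.52 to 6.54 ± 0.550 CPM (log2 fold change -1.13, SE 0.17, adjusted p = 0.00734), *ARF19* from 17.2 ± 1.24 to 9.44 ± 0.974 CPM (-0.86, SE 0.13, adjusted p = 0.00809) and *ARF8* from 33.9 ± 7.27 to a mean of 19.5 CPM (-0.80, SE 0.17, adjusted p = 0.0199, edgeR). The TPL and TPR corepressor genes had no call. Among transport genes, *ABCB19*, which codes for an ABC transporter of polar auxin flow, fell from 153 ± 47.6 to 72.2 ± 7.84 CPM (log2 fold change -1.08, SE 0.22, adjusted p = 0.0175, edgeR). The AGC kinase genes *PID* and *WAG1*, whose products phosphorylate PIN carriers, fell by 1.13 (SE 0.29, adjusted p = 0.0328, edgeR) and by 0.96 on the log2 scale (SE 0.28, adjusted p = 0.0499, edgeR). *PILS5*, a carrier of the endoplasmic reticulum, rose from 2.25 ± 0.669 to 6.54 ± 0.821 CPM (log2 fold change 1.54, SE 0.24, adjusted p = 0.00821, edgeR). Its more abundant relative *PILS2*, named after its value was seen, fell from 36.5 to 24.8 CPM (-0.56, SE 0.12, adjusted p = 0.0208, edgeR). That call was lost without *ref4-3* replicates 2 and 3 (up to 0.0929). The other tested PILS genes were not called. *YUC4*, a synthesis gene of young organs, was low in both genotypes, 0.470 ± 0.199 and 1.44 ± 0.426 CPM (log2 fold change 1.59, SE 0.40, adjusted p = 0.0314, edgeR). *GH3.9* and the glucosyltransferase gene *UGT74D1* fell by 1.15 (SE 0.19, adjusted p = 0.00871, edgeR) and by 0.73 on the log2 scale (SE 0.21, adjusted p = 0.044, edgeR). *ARF11*, *ARF19* and *PILS5* kept their calls in all 6 fits that left out a library. *YUC4* kept its call only without wild-type replicate 1 (otherwise adjusted p up to 0.125), and *WAG1* and *UGT74D1* only without wild-type replicate 2 (up to 0.136 and 0.128, edgeR). The call of *PID* was lost without wild-type replicate 2 and each *ref4-3* library (up to 0.121), that of *ARF8* without each *ref4-3* library (up to 0.0839), that of *ABCB19* without *ref4-3* replicates 2 and 3 (up to 0.0804) and that of *GH3.9* without *ref4-3* replicate 3 (0.0503). With the replicate number as a block, *YUC4* and *WAG1* were not called (adjusted p = 0.0633 and 0.0710, edgeR). Without *ref4-3* replicates 1, 2 and 3 in turn, 6, 4 and 3 of the 13 genes were called. Those fits called 12%, 7.88% and 4.09% of all genes tested in them.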

How the data were processed

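The authors trimmed paired-end reads of 6 directional poly(A) libraries with fastp 0.23.2, mapped them to TAIR10 with hisat2 2.2.1 and used SAMtools 1.17 for sorting. Reads were then assigned to genes, which Araport11 annotates. The deposited values are raw counts, not normalized and not pooled; the strand setting and the handling of reads that map to several places are not given in the sources used here, nor is it stated that libraries share a batch by number.

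For the test, edgeR 4.0.16 (R 4.3.3) was run over the whole table: filterByExpr (minimum count 10, minimum total 15) kept 23050 of 36796 genes, followed by TMM factors, glmQLFit and glmQLFTest. The SE was taken from the F statistic. The procedure was tested on simulated data before use. Exon lengths, gene starts and sequences came from RefSeq's TAIR10.1, which was matched to the TAIR10 genes by locus identifier. BLAST+ 2.17.0 was used to look for near copies at 95% identity over 50% of the transcript. All 55 members were matched. Of the listed genes, *DAO2*, *PRX44* and *ERF109* were left out, because the annotation gives no symbol to check them. Amino acid motifs were not analysed here. The result of 1 member is not reported here; it is counted in the totals and not drawn in the figures. Figures used Python 3.11.15 and matplotlib 3.10.9.

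The members and lists were chosen with earlier results of these data known. Genes were given in full if they were members with an adjusted p-value under 0.05, or the most abundant member per kilobase of a function group; of the other pathway genes, up to 10 called ones with the largest change are named. Alternatives were edgeR's exact test, DESeq2 1.42.0, RLE in place of TMM, a filter of only 1 count, a stricter one of 10 counts per library, the replicate number as a block, leaving out each library, and a fold change above 2; library totals without TMM were added after the values were seen. P-values measure the spread between pools of plants.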

Additional observations from a re-analysis of the deposited data

How the results depend on the processing

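Each of the 20 called members that could be tested kept its direction under every alternative run (*GH3.4* failed the filter of at least 10 counts in every library). The main test called 20 members, 18 lower and 2 higher. Leaving out 1 library in turn gave 8 to 20 in all, 8 to 17 lower and 0 to 3 higher, with the lowest counts without *ref4-3* replicate 3, and 12 in all and 11 lower without *ref4-3* replicate 2. A fold change above 2 left 13, of which 1 higher. Without *ref4-3* replicates 2 and 3, 7.88% and 4.09% of all genes tested in those fits were called, against 20.4% in the main test. EdgeR's exact test and DESeq2 each called 4 higher, and 1 was higher with the replicate block. These settings called 26.5%, 26.8% and 14.6% of all tested genes. Library totals without TMM moved the median of all genes by 0.245 on the log2 scale and called 25.4% of all tested genes. Of the members, they called 20, with 7 of them higher, and 15 of the 20 were shared with the main test. By function, leaving out a library gave 6 to 11 Aux/IAA, 0 to 2 TIR1/AFB, 0 to 4 GH3 and *DAO1*, 0 to 1 synthesis, 2 to 4 carrier and 3 to 13 other pathway calls, and a fold change above 2 left 0 TIR1/AFB, 2 carrier and 6 other pathway calls. Synthesis calls were 1 with edgeR's exact test, 1 with DESeq2 and 2 with library totals. *IAA9*, not called, had log2 fold changes of -0.0297 with no filter and, leaving out a library, of -0.02 (wild-type replicate 1) to 0.1187 (*ref4-3* replicate 1). The cause of these shifts was not tested.

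Deviations of same-numbered libraries correlated at -0.098, -0.024 and 0.207, and those of differently numbered libraries at -0.135 to 0.133. With so few libraries per genotype, these values cannot decide whether the numbers mark a shared batch. With the replicate block, 18 members were called, all shared with the main test, and 3362 of all genes against 4701.

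At these depths genes such as *IAA31*, *IAA33* and *GH3.4* are limited by counting error.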
